A study of Caenorhabditis elegans with 2 samples.

Results

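The 10 genes described here encode the proteins that pair homologous chromosomes along their length in the germline of the nematode Caenorhabditis elegans. They are 6 SYP genes of the synaptonemal complex (syp-1, syp-2, syp-3, syp-4, syp-5 and syp-6) and 4 genes of the HORMA domain family that builds the meiotic chromosome axis (htp-1, htp-2, htp-3 and him-3). They were listed by name and matched to 10 of 19973 annotated protein-coding genes. Binding of B0019.2, which RefSeq annotates as an SPK domain-containing protein, was mapped across the genome by ChIP-seq, in which DNA that is precipitated with a chromatin protein is sequenced. Whole worms of strain RW12288 carried st12288, a CRISPR insertion that fuses B0019.2 to TY1, EGFP and 3xFLAG, and an anti-GFP antibody was used for the precipitation. The samples formed 1 group, with 2 biological replicates of young adults aged 63.5 h, synchronized by starving L1 larvae after bleaching. Both libraries carry the tag, and control libraries were not analysed here, so no comparison between genotypes was made.

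In meiotic prophase each chromosome is folded into loops along a protein axis of cohesin and HORMA domain proteins. HTP-3 is needed to load the other HORMA domain proteins, and HIM-3, HTP-1 and HTP-2 act in pairing, synapsis and the stepwise release of sister chromatid cohesion. The SYP proteins then assemble between the axes of homologs as the central region of the synaptonemal complex, a ladder-like structure that forms along the length of paired homologs and limits crossovers. SYP-5 and SYP-6 are related proteins with overlapping roles, whereas worms without SYP-1, SYP-2, SYP-3 or SYP-4 fail to form the complex. Whole young adults hold germline and somatic cells together, so these lists do not say in which cells a peak arose.

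A gene is called peak-bearing below when the summit of a peak that passed the authors' reproducibility threshold lay between 1000 bp upstream and 200 bp downstream of its start. The main list, made by the authors from both libraries, held 900 such peaks out of 55591 ranked candidates. The signal value is the authors' own number for each peak, with no stated scale, and was compared only within a list. The irreproducible discovery rate (IDR) scores how well the rank of a peak agrees between inputs, and every thresholded peak had −log10 IDR of at least 2. Read counts are not in these lists, and the depth behind each peak is unknown.

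B0019.2 peaks were found at syp-4, syp-5 and syp-6, and no thresholded peak lay at the other 3 SYP genes or at any of the 4 HORMA domain genes. Of the 10 genes, 8 had a ranked candidate in the promoter window, and 3 of these 8 were peak-bearing. Among all 10361 protein-coding genes with a candidate in the window the share was 7.39%, and among all annotated protein-coding genes it was 3.84%. Adding the gene body brought in 1 further gene with a candidate, htp-2, and no further peak-bearing gene, so that 3 of 9 stood beside a share of 6.19% of protein-coding genes. The 3 peaks had signal values of 141, 153 and 154, above the upper quartile of the main list (131). The other 21 candidates in the windows and bodies of the 10 genes had signal values from 14.4 to 59.8, with a median of 38.6. The 2 sets of values did not overlap, but they were defined by the reproducibility threshold. Most peaks that passed it had signal values above all 21, as the lower quartile of the main list was 77.2. This gap is therefore not a result about these genes. The median over all 55591 candidates was 27.9 and that of the 900 main peaks was 95.7.

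**Figure D1:**
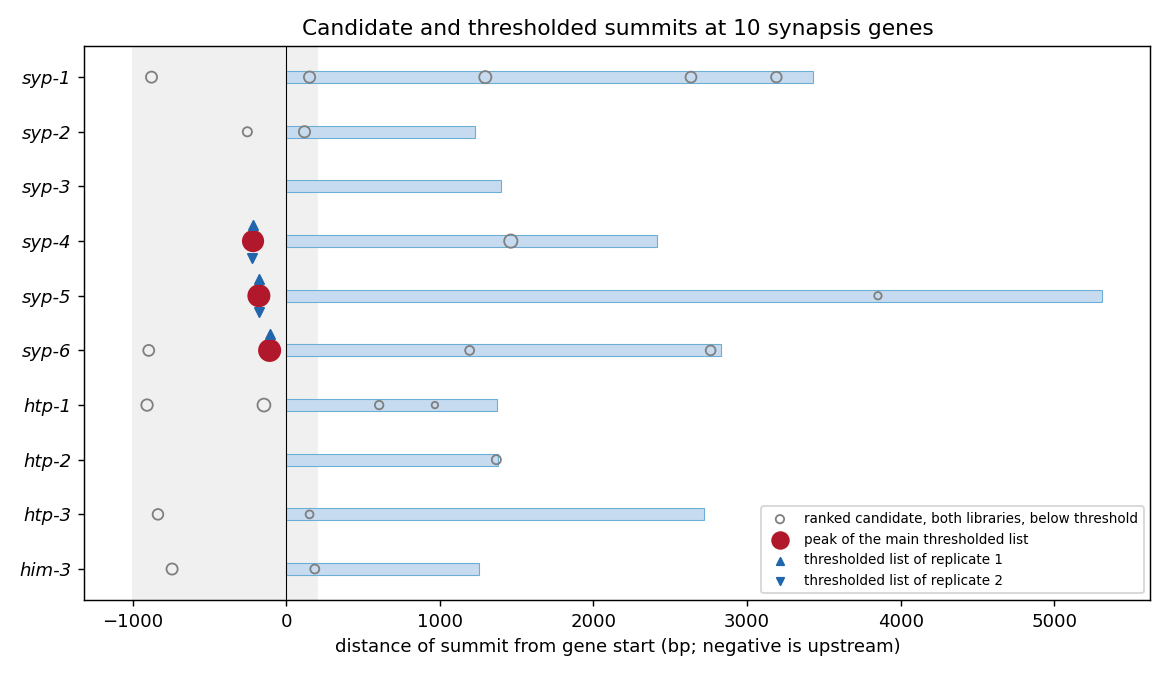
Positions of summits at the 10 genes, in bp from the gene start (x axis, negative is upstream), with 1 row a gene, the gene body as a blue bar and the promoter window shaded. Filled red circles are peaks of the main list, open circles are candidates below the threshold (area grows with signal value), and triangles are peaks of each library's own thresholded list. The 3 red circles lie 108 to 216 bp upstream of syp-4, syp-5 and syp-6, and syp-6 has no triangle for replicate 2.

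The strongest of the 3 peaks lay between syp-6 and mei-2, on chromosome I at 6565882 to 6566151 (assembly ce11). SYP-6 is a central region protein, and MEI-2 is a subunit of the katanin that severs microtubules in the oocyte meiotic spindle. The peak had a signal value of 154 and ranked 153 of 900 in the main list. Its summit lay in intergenic sequence, 108 bp upstream of syp-6 (6566125 to 6568954, plus strand) and 165 bp upstream of mei-2, which points the other way from a start 273 bp distant. The position therefore does not assign the peak to 1 of these genes, although syp-6 has the nearer start. In the list of replicate 1 the peak had a signal value of 95.7 and ranked 105 of 524. In replicate 2 the candidate at the same distance of 108 bp had a signal value of 54.3 and −log10 IDR of 1.67, and was not in the thresholded list. The syp-6 call thus rested on replicate 1 and on the joint list. The candidate of replicate 2 ranked 393 of 38525, ahead of the syp-4 candidate, which ranked 518 and did pass the threshold in that library.

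The peak of syp-5, which encodes the relative of SYP-6 in the central region, lay on chromosome I at 3198881 to 3199150. It had a signal value of 153 and ranked 159 of 900. The summit was 178 bp upstream of the gene start (3193528 to 3198838, minus strand), in intergenic sequence, and no other gene's window or body held it. Of the 3 peaks it was the one with a single possible gene by position. Replicate 1 placed the summit at the same 178 bp, with a signal value of 64.0 and rank 288 of 524. Replicate 2 placed it at 180 bp, with a signal value of 82.9 and rank 117 of 496. Both libraries therefore held it, and its rank was higher in replicate 2, unlike that of the syp-6 and syp-4 peaks.

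The peak of syp-4, a central region protein needed for synapsis, lay on chromosome I at 6847160 to 6847429, with a signal value of 141 and rank 197 of 900. Its summit was 216 bp upstream of syp-4 (6847511 to 6849923, plus strand). It also lay inside 2 short non-coding genes, 8 bp from the start of the snRNA gene H27M09.6 on the minus strand and 161 bp from the start of the ncRNA gene H27M09.7 on the plus strand. The divergent protein-coding gene H27M09.5 starts 336 bp away. When a summit was given only to the gene with the nearest start, non-coding genes included, the peak went to H27M09.6 and the count of peak-bearing members fell from 3 to 2. Replicate 1 held the peak with a signal value of 92.3 at rank 114 of 524. Replicate 2 held it with a signal value of 47.6 at rank 404 of 496, in the lower part of its list. A second candidate lay in the coding sequence of syp-4, 1462 bp from the start. At a signal value of 59.8 and −log10 IDR of 1.52, it was the strongest of the 21 candidates below the threshold.

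Replicate 1 alone gave 3 peak-bearing genes among the 8 members with a candidate of that library in the window, where the share of protein-coding genes was 5.38%. Replicate 2 alone gave 2, syp-4 and syp-5, among 10 members with a candidate, where the share was 5.54%. The summits of the 3 peaks differed by at most 9 bp in their distance to the gene start between the libraries' ranked lists. In 91.6% of the main peaks the width was 270 bp, the same as for all 3 of these peaks, so the peak limits carry no information on the width of the bound sequence. The 766 peak-bearing protein-coding genes had their summit at a median distance of -255 bp, where negative is upstream, and the 3 SYP summits, at 108 to 216 bp upstream, were closer to the start than that median.

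**Figure D2:**
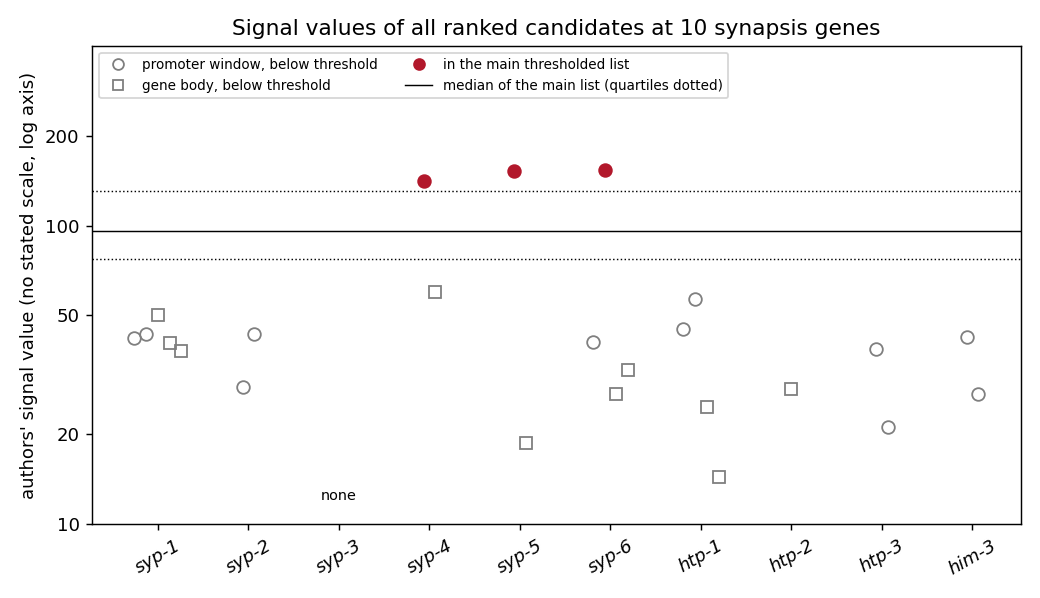
Signal values (log axis, authors' values with no stated scale) of every ranked candidate of both libraries at each gene, with circles for the promoter window, squares for the gene body and filled red circles for peaks of the main list. The solid line is the median of the main list (95.7) and the dotted lines are its quartiles (77.2 and 131). The 3 peaks lie above the upper quartile and all 21 other candidates lie below the lower one.

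The remaining SYP genes had only candidates below the threshold, or none in the ranked list of both libraries that belongs to the main list. The gene syp-1 encodes a long coiled-coil protein that spans the central region, and it lies on chromosome V at 16404274 to 16407701 (plus strand), overlapped at its start by the gene F13A7.14. It held 5 candidates, with signal values from 38.0 to 50.1 and −log10 IDR from 0.105 to 0.316. The strongest lay 1296 bp inside the gene, in an annotated 5′ UTR. In replicate 1 that candidate ranked 1304 of 45502, and the overlapping candidate in replicate 2 ranked 28425 of 38525. The libraries therefore differed widely in where they ranked it. The closest peak of the main list to the syp-1 start was 31.9 kb away.

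The gene syp-2, which encodes another coiled-coil protein of the central region, lies on chromosome V at 5536487 to 5537717 (plus strand). Its strongest candidate was 119 bp downstream of the start, in the annotated 5′ UTR, with a signal value of 43.5 and −log10 IDR of 0.3. It ranked 20825 of 45502 in replicate 1 and 4000 of 38525 in replicate 2. A weaker candidate (28.9) lay 253 bp upstream of syp-2 and 9 bp inside the divergent gene cox-16. The closest main peak was 31.2 kb away.

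The gene syp-3, on chromosome I at 8663045 to 8664445 (minus strand), encodes a further central region protein. It was the 1 member with no candidate in the ranked list of both libraries that belongs to the main list. The other ranked list of both libraries held 1 candidate there, 378 bp upstream, with a signal value of 21.3 at rank 35199 of 45081. Replicate 1 held none and replicate 2 held 2, with signal values of 18.3 and 12.5. The closest main peak was 17.3 kb away, upstream of egg-6. The strongest candidates of the 3 SYP genes without a peak thus had signal values of at most 50.1.

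At the axis genes htp-1 came nearest to a peak. HTP-1 and HTP-2 are close relatives that act in homolog pairing and in the release of cohesion. The gene htp-1 lies on chromosome IV at 5390189 to 5391557 (minus strand), and its strongest candidate was 145 bp upstream, in intergenic sequence shared with the divergent gene ZK616.5 (227 bp from its start). The signal value was 56.7, rank 1950 of 55591, and −log10 IDR was 0.804. The overlapping candidates ranked 7535 of 45502 in replicate 1 and 5688 of 38525 in replicate 2. In the main list 25 of 900 peaks had a lower signal value than this candidate, so the signal value alone did not set the threshold. The closest main peak was 78.4 kb away, near rme-2.

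The gene htp-2, on chromosome IV at 6419522 to 6420898 (plus strand), had no candidate in its promoter window in either ranked list of both libraries. Its 1 candidate in the main ranked list lay in the annotated 3′ UTR, 1368 bp from the start, with a signal value of 28.4. A main peak of signal value 141 lay 1.87 kb downstream of the htp-2 start, beyond the gene's end. This summit was 193 bp upstream of puf-11, a PUF family RNA-binding protein gene, and 192 bp upstream of a pseudogene. The coding sequences of htp-1 and htp-2, both 1056 bases long, were identical at 954 positions (90.3%). How reads from such similar sequence were placed is not given in the sources used here, so candidates inside these coding sequences (24.6 and 14.4 in htp-1) are uncertain.

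The gene htp-3, whose product is needed to load the other HORMA domain proteins, lies on chromosome I at 4827072 to 4829791 (plus strand). Its strongest candidate (38.6) lay 835 bp upstream in the coding sequence of the neighbour tofu-4, and a second (21.1) lay 152 bp inside the gene. The candidate at 835 bp had no overlapping candidate in either library's own ranked list. The gene him-3, a HORMA domain axis component whose loss raises the frequency of males through X chromosome missegregation, lies on chromosome IV at 6977508 to 6978765 (plus strand). Its strongest candidate (42.3) lay 743 bp upstream, in the coding sequence of the P granule gene pgl-1. It ranked 1596 of 38525 in replicate 2 and in replicate 1 the nearest candidate (18.8, rank 19833 of 45502) lay 557 bp upstream and overlapped it by less than 50%. The closest main peaks were 37.0 kb from htp-3 and 62.4 kb from him-3. Across the 4 axis genes the strongest candidates ran from 28.4 (htp-2) through 38.6 (htp-3) and 42.3 (him-3) to 56.7 (htp-1), all below the lower quartile of the main list (77.2).

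**Figure D3:**
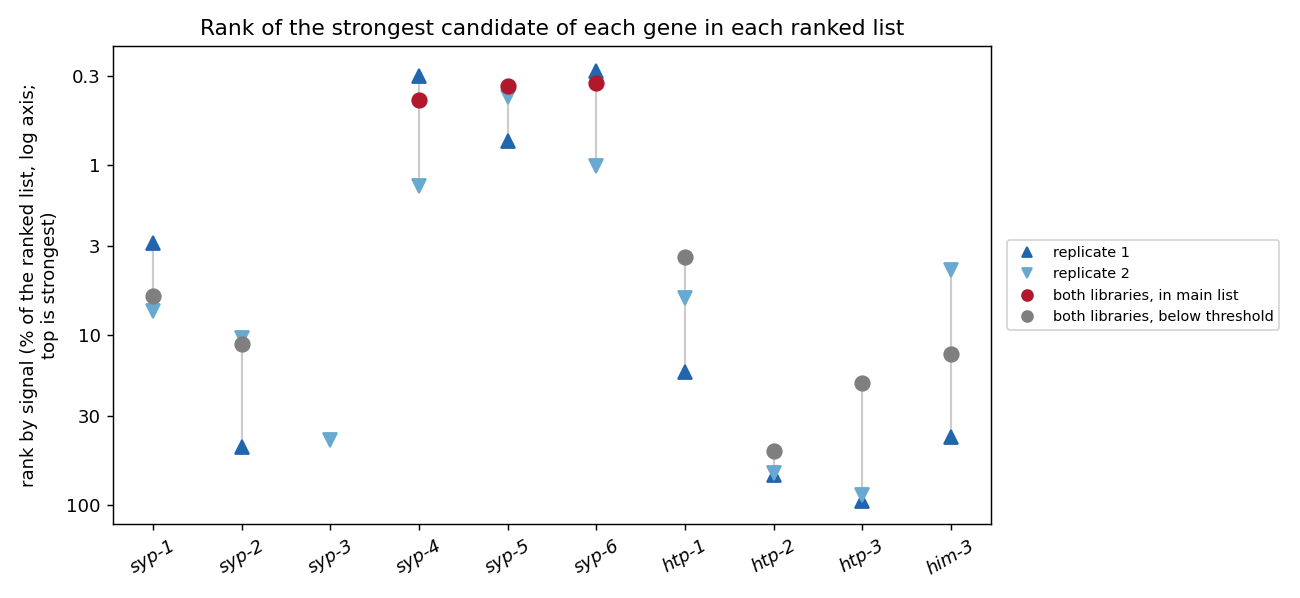
Rank by signal value of the strongest candidate of each gene, as a percent of the ranked list (log axis, strongest at the top), in replicate 1, in replicate 2 and in both libraries together. The strongest candidate can be a different site in each list, as at syp-1 (1269 bp from the start in replicate 1 and 138 bp in replicate 2). The 3 peak-bearing genes rank between 0.279% and 1.34% in every list, and the other genes rank from 2.87% to 94.6%. The genes were divided by the reproducibility threshold, which itself uses ranks, so this separation is not a result about them.

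A divergent protein-coding gene started within 1000 bp of 8 of the 10 genes. These 8 included syp-4 and syp-6 among the peak-bearing genes, and all members without a peak except syp-1. The peak-bearing gene syp-5 had its closest divergent neighbour 7924 bp away. All 3 peak-bearing members lay on chromosome I, as did syp-3 and htp-3, which had no peak. Of the 24 candidates in the 10 regions, 14 had their summit in coding sequence, 4 in an annotated 5′ UTR, 2 in a 3′ UTR, 1 in a non-coding exon and 3 in intergenic sequence. The 3 peaks were the non-coding exon summit of syp-4 and 2 of the 3 intergenic ones, and the third intergenic summit was that of htp-1. Over all 766 peak-bearing protein-coding genes, 95.4% had their strongest summit upstream of the start, as these 3 did. Shares of all peaks by annotation class or chromosome were not computed. Nor was the share of all genes with a divergent neighbour within 1000 bp, so these counts are no trait of the members.

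Other genes of meiosis were described from a list of 63 matched genes, grouped by role. Of these, 50 had a candidate in the window and 12 held a main peak, beside the 7.39% of all protein-coding genes with a candidate. Cohesin genes held one in 5 of 7 cases with a candidate, meiotic spindle and division genes in 3 of 7, repair and crossover genes in 2 of 19, double-strand break genes in 1 of 5, and genes of pairing centres and the nuclear envelope in 1 of 8. Other genes linked to the complex or axis held none in 4 cases. The difference between roles was not tested. These 4 were skr-1, an SCF subunit that is also part of the synaptonemal complex (strongest candidate 45.5), the cohesion protector lab-1 (36.7), the HORMA-remodelling ATPase gene pch-2 (34.7) and its partner cmt-1 (18.9). The count of 12 became 6 without replicate 1 and 9 without replicate 2, each from the remaining library's own list, and it was 7 when only main peaks at or above the median signal value were kept. Over all protein-coding genes the count of 766 became 487, 521 and 491 under the same settings.

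The cohesin peaks are the closest in function to the axis genes, since cohesin forms the base of the meiotic axis. The highest was at wapl-1, whose product releases cohesin (signal value 219, 154 bp upstream, shared with the histone variant gene htz-1). The peak of rec-8, which encodes a meiotic kleisin subunit, had a signal value of 155 at 242 bp upstream and was shared with mex-5. The related kleisin genes coh-4 and coh-3 had signal values of 153 at 170 bp and 81.5 at 168 bp, shared with pid-5 and bmk-1, and another gene's start was nearer to the coh-4 peak. The core subunit gene smc-3 had a peak of 72.4 at 798 bp, nearer to another gene's start, and its window also held a stronger candidate (76.6) that was not in the main list. By the nearest start of any gene class, 3 of the 5 cohesin peaks stayed with the cohesin gene (rec-8, coh-3 and wapl-1). No main peak lay in the windows of him-1 (strongest candidate 29.0), which encodes the SMC-1 subunit, or scc-3 (41.8). Both libraries' own thresholded lists held a summit in the windows of rec-8, coh-4 and wapl-1. Only the list of replicate 1 did so for coh-3, and only that of replicate 2 for smc-3. Overlap of these summits with the main peaks was not checked. Outside cohesin, peaks lay at bub-1 (106, shared with lin-61), ify-1 (84.4, shared with rpl-22), mei-2 (the syp-6 peak) and zhp-2 (115, shared with lotr-1). Others lay at rad-54.L (89.1, shared with snx-3), xnd-1 (97.4, shared with madf-11) and prom-1 (84.6, shared with rpoa-2). Another gene's start was nearer to the zhp-2 and mei-2 peaks. Neither library's own thresholded list held a summit in the ify-1 window.

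**Figure D4:**
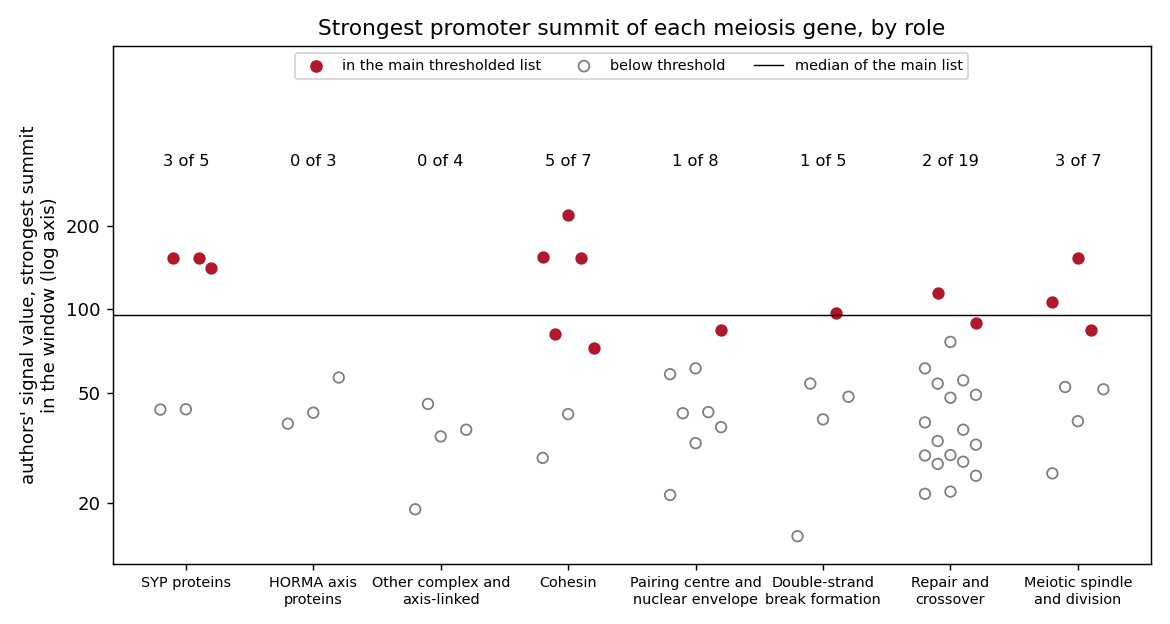
Signal value (log axis) of the strongest promoter summit of each meiosis gene with a candidate, by role, taking the main peak where a gene has one. Filled red points hold a peak of the main list, open points do not, the line is the median of the main list (95.7), and the numbers give genes with a peak out of genes with a candidate. SYP genes hold 3 of 5, HORMA axis genes 0 of 3 and cohesin genes 5 of 7.

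The sequence around summits is shown for the strongest axis gene candidate below the threshold, htp-1, and for the cohesin peaks except that of wapl-1, which held none of the words marked below. Each run covers 50 bp to either side of the summit (101 bases, ce11, read on the strand of the gene). Capitals mark matches on either strand to TTTGAA, the core of the cell cycle homology region, and to CGCCTTTAA and TACGGTA, which are 2 of 8 words tried by eye after these sequences had been seen. They lie at chrIV:5391652-5391752 for htp-1 (minus strand), chrIV:13353385-13353485 for rec-8 (minus strand), chrV:14457204-14457304 for coh-3 (plus strand), chrV:4175760-4175860 for coh-4 (minus strand) and chrIII:11290056-11290156 for smc-3 (plus strand).
htp-1: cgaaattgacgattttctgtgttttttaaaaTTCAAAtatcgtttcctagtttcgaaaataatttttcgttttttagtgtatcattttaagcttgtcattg
rec-8: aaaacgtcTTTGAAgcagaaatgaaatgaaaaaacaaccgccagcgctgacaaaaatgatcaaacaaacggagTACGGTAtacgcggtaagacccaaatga
coh-3: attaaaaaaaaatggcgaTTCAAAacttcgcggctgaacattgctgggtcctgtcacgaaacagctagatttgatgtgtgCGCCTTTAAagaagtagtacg
coh-4: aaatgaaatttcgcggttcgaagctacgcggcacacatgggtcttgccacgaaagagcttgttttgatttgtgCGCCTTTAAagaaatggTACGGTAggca
smc-3: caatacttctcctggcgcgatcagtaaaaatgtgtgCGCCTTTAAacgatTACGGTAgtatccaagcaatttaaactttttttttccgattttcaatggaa

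The word CGCCTTTAA, counted on both strands, lay within 50 bp of 35 of 900 main summits (3.89%) and of 304 of 55591 ranked summits (0.547%). It was present at the coh-3, coh-4 and smc-3 peaks shown above. Among the SYP genes it was within 50 bp of the syp-6 summit and within 100 bp of the syp-5 summit, but not within 100 bp of the syp-4 summit. Of the 21 candidates below the threshold, 1 held it within 50 bp, that of syp-2 at 119 bp downstream of the start. The word TACGGTA lay within 50 bp of 8.78% of main summits and 1.79% of ranked summits. It was at the rec-8, coh-4 and smc-3 peaks and at none of the 3 SYP peaks. The other 6 words tried included GTACGGT, which overlaps TACGGTA, and GCGCCTTT, which overlaps CGCCTTTAA, and lay near 6.22% to 14.7% of main summits and 0.75% to 7.13% of ranked summits. Of the 8 words these 2 were kept, and the choice was made on sequences already seen, so the shares are a description and support nothing.

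Of the 6 words fixed as a list, TTTGAA was the only one found within 50 bp of a SYP peak, at syp-6, and it was at 3 of the 21 candidates below the threshold. It lay near 20.1% of main summits and 21.7% of ranked summits, and was found at 7 of the 12 peaks of the other meiosis genes, of which the mei-2 peak is the syp-6 peak. The E2F-like words GGCGGGAA and GCGCGAAA, which were near 1.67% and 5.89% of main summits, were at none of the 3 SYP peaks or 21 other candidates. The same held for the E-box CACGTG (2.78% of main summits). The GATA factor word GATAAG (2.67% of main and 3.7% of ranked summits) was at 1 of the 21. The splice acceptor word TTTCAG (7.78% of main and 17.1% of ranked summits) was at 5 of the 21. Matches were counted on both strands, and no match says only that the letters are not in the window. The GC content of the 101 bases was 57.4% at syp-4, 46.5% at syp-5 and 46.5% at syp-6, beside medians of 47.5% over main summits and 40.6% over ranked summits. The 21 other candidates had a median of 37.6%, from 25.7% to 51.5%, and the lowest value was shared by the htp-1 candidate shown above and a candidate in the syp-6 gene body. Within 100 bp the median was 38.3% at the 3 SYP peaks and 38.8% at the 21 other candidates. The medians over main and ranked summits were then 42.8% and 39.3%. The difference in median between the 3 peaks and the other candidates was thus seen only in the narrower window.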

How the data were processed

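Peak lists from ChIP-seq of B0019.2 in 2 libraries of whole worms were used. Each list was made by the authors on assembly ce11, per the labels and readme files, and no aligner or peak caller is given in the sources used here. The signal per peak is the deposited value, and −log10 of the global IDR is a further deposited column of the ranked lists. Per the readme files, the authors derived the main list, their conservative one, from the alignments of both libraries and from further files not described there. Its ranked list was identified as the one in which all 900 peaks had −log10 IDR of at least 2. A further 16 columns of values per input were not used. Fragments were 200 to 800 bp, per the labels. Intervals of peaks are given from 1.

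Genes came from Ensembl release 115 (WBcel235, the coordinates of ce11) on 6 nuclear chromosomes, and sequence from RefSeq WBcel235. A summit went to every gene whose window or body held it. Of the list of other meiosis genes, smc-1 matched no gene under that name and its gene is listed as him-1. Named genes were the members, genes sharing their summits, and list genes with a main peak. Other genes were named after their values were seen. Candidates of 2 lists were matched at an overlap of 50% of the narrower peak. Members and lists were chosen with earlier results of these data known. No test was made, since there was 1 group and the files hold no counts. The assignment was checked on summits placed at set distances. Words beyond the fixed list were 2 kept of 8 tried by eye. Coding sequences were aligned with Biopython 1.88. Analyses used Python 3.11.15, numpy 2.4.6 and pandas 2.3.3.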

Additional observations from a re-analysis of the deposited data

How the results depend on the processing

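The count of 3 peak-bearing members (syp-4, syp-5 and syp-6) was the same with the other thresholded list of both libraries, main peaks at or above the median signal value, windows of 500 and 100 bp or 2000 and 500 bp, replicate 1 alone and, as settings chosen after seeing the data, starts of any annotated transcript or the nearest protein-coding start. It was 2 without replicate 1 (syp-6 lost) and 2 with the nearest start of any class (syp-4 lost). Counts with gene bodies were 3 and 2 in the same settings, where run. The 12 peak-bearing genes among the other meiosis genes became 7 with those stronger peaks only and ranged from 6 to 9 with the list of 1 library; the other settings gave 8 to 14, and the cause was not tested. Of 26 alternative ranks of the strongest candidates, 10 differed from the main rank by more than the standard deviation of the 2 library ranks. Most of the 26 were those library ranks themselves, and the strongest candidate could be a different site in each list. The count of 10 is therefore a description only. With 100 bp to each side of the summit, 1 of 8 word counts at the 3 peaks changed (CGCCTTTAA, from 1 to 2). Their median GC content fell from 46.5% to 38.3%, beside 38.8% at the 21 other candidates. No paired analysis was possible because there was 1 group. With depth unknown, how weak a site the lists could show was not tested.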

Other observations

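Main peaks in gene bodies but outside promoter windows were found at 2 of the 63 other meiosis genes, scc-2, which encodes the cohesin loader, and brc-1, the worm BRCA1 homolog. Over all 19973 protein-coding genes 193 (0.966%) had such a peak. With the start of any annotated transcript in place of the gene start, both counted as peak-bearing. The gene mre-11, a nuclease of double-strand break repair, had a candidate of signal value 76.3 in its window. The other thresholded list of both libraries held a summit in that window, and the main list held none.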
